A study of Mus musculus with 4 samples.

Results

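The genes described here are p53, its regulators and its known transcriptional targets, in stem and progenitor cells of irradiated mice. They were listed by name, and 33 of the 34 listed genes had a probe set annotated to that gene alone, among 18194 genes named on the array. Trp53, the gene of p53 itself, was not analysed here. Signals came from 4 Affymetrix 3′ expression arrays, 2 of necdin null and 2 of wild type cells. Both groups were Lin-Sca-1+c-Kit+ (LSK) bone marrow cells, the marrow fraction enriched for haematopoietic stem cells, taken from C57BL/6 mice whose blood system had been rebuilt with fetal liver cells of the genotype named. All of these mice had received 6.5 Gy, a sublethal dose, so the donor genotype is the labelled difference, and the arrays hold no unirradiated group against which a response to radiation could be measured. The sources used here do not give the host marrow, the time of collection after irradiation or whether an array holds 1 animal or a pool. The p-values therefore cover the spread among these arrays alone, part of which may be technical.

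p53 is a transcription factor that DNA damage stabilises. Damage kinases such as ATM modify it, it is released from MDM2, which otherwise marks it for degradation, and it then switches on genes of cell cycle arrest, DNA repair, apoptosis and metabolism, together with feedback genes (Mdm2, Ppm1d, Ccng1) that bring its activity down again. In haematopoietic stem cells p53 governs quiescence and the loss of cells after irradiation. Necdin, the growth suppressor encoded by the imprinted gene Ndn, is known to bind p53 and has been described as a p53 target in blood stem cells, which is the reason to set these genes side by side in necdin null and wild type cells.

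p53 binds DNA through a motif of 10 bases made of 3 purines, a C, 2 bases that are A or T, a G and 3 pyrimidines. The motif is its own reverse complement, so a scan of one strand covers both, and a full response element holds a pair of such motifs. RefSeq promoter windows (build GRCm38.p6, 250 bases before to 50 after each annotated start) were found for 27 of the 34 genes. An exact motif was present for 9 of these 27 genes (33.3%), namely Mdm2, Ppm1d, Ccng1, Gadd45a, Polk, Aen, Ei24, Ddit4l and Trp53, against 9.55% of all 27025 genes in that table. Counted by window it was present in 10 of their 39 windows, against 8.36% of all 32851 windows. A pair of motifs spaced by at most 1 base, with at most 2 departures from the motif and both the C and the G kept, was present in the Ccng1 window alone among these genes. Over the whole table such a pair was present for 0.807% of genes and in 0.682% of windows. Ccng1 is shown because it holds this pair and also gave the highest signal of the group, and the other stretches are shown so that single motifs can be compared with it. All run 5′ to 3′ on the strand of the gene, with the motif or pair in capitals. A match describes these letters and is no evidence of binding. Sequence outside these windows was not scanned, so a window without a motif or pair does not mean that the gene lacks one.

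Ccng1, minus strand, chr11:40755387-40755536, bases -250 to -101 from the start, pair at -195 to -176 with 1 departure from the motif: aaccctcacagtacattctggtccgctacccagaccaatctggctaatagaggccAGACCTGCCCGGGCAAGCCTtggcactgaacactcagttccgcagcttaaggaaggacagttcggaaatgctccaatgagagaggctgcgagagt
Mdm2, minus strand, chr10:117710925-117710954, motif from base -186: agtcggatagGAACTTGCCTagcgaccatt
Ppm1d, plus strand, chr11:85311112-85311141, motif from base -132: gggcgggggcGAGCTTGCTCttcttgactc
Ddit4l, plus strand, chr3:137623572-137623601, motif from base -90: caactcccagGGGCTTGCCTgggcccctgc
Gadd45a, minus strand, chr6:67037428-67037457, motif from base -40: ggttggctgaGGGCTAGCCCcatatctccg
Ei24, minus strand, chr9:36797335-36797364, motif from base -10: ccagctgccccgtgcggcccGGGCATGCCC
Polk, minus strand, chr13:96519399-96519428, motif from base -231 of the downstream of its 2 annotated starts: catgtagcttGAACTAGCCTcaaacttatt

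The arrays were checked first. Of the 8 probe sets of Ndn, 5 passed the filter on low values, each with lower signals on both necdin null arrays than on both wild type arrays. For 4 of them no necdin null signal exceeded 17.6, with log2 differences from -5.89 to -4.03; 1435382_at, for example, had 2.73 and 12.1 on necdin null arrays, against 559 and 391.8 on wild type arrays. These 4 passed the filter through their wild type arrays only. The fifth, 1437853_x_at, is the main probe set of Ndn and had 55.4 and 105.0 against 252.5 and 255.5. Its log2 difference was -1.68 (limma unadjusted p = 0.0056, adjusted p = 0.999). Of the probe sets below the filter, 1438978_x_at (-1.68) and 1438939_x_at (-1.10) were negative and 1456575_at (1.02) was positive. The progenitor markers Kit (3744 to 6617 over the 4 arrays) and Cd34 (13407 to 15252) were bright, and Slamf1 of the same list was dimmer (74.4 to 397). Of the T and NK markers Cd3e and Cd3g stayed at or below 37.8, Cd8a reached 64.0 and Nkg7 was bright at 3047 to 4045. Markers of other lineages had signal too: the monocyte gene Lyz2 5790 to 12613, the B lineage gene Cd79b 694 to 1231, the erythroid gene Klf1 696 to 1188 and the megakaryocyte gene Pf4 3001 to 5075. Cd14, Cd79a and Hba-a1 of those lists stayed below the filter. Ly6a, which encodes Sca-1, was not analysed here. All 10 neutrophil markers were above the filter. Together they summed to 87907 and 182919 in necdin null cells, against 67088 and 124020 in wild type cells. The sums were higher on both replicate 2 arrays, and within each replicate number higher in necdin null cells. The median log2 difference of the 10, necdin null minus wild type, was 0.52, and 0 had a limma adjusted p under 0.05. Elane, Prtn3 and Csf3r had both necdin null arrays above both wild type arrays, and the others overlapped. The brightest 1% of probe sets held 37.4% of the signal on necdin null replicate 2, against 28.9% to 30.6% on the others. The arrays also differed in sex-linked signals: Xist had 4841 and 76.8 on necdin null arrays, against 9930 and 7182 on wild type arrays, and the Y-linked Eif2s3y 2273 and 2987 against 32.6 and 1974. Both were high on necdin null replicate 1 and wild type replicate 2, and the part of this in the comparison of genotypes was not tested.

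Among the p53 genes the signal was highest for 3 members in the top 10% of all genes, Ccng1, Trp53inp1 and Ei24, and 22 of the 33 lay above the median gene. Probe sets differ in how strongly they bind their transcript, so a signal places a gene only roughly among the others. Sfn and Plk2 stayed below the filter (a mean log2 value of 5.09, a signal of about 30.3), which left 31 members to test. No p53 regulator or target differed between the genotypes past the threshold. Limma called 0 of 31 members at an adjusted p under 0.05, beside 0 of 12680 genes (0%). Ndn itself was among the genes not called (adjusted p = 0.999), so the lack of calls does not show that the members are unchanged. At an unadjusted p under 0.05 there were 2 members, Ddb2 and Mdm4, beside 383 genes (3.02%). The log2 difference, necdin null minus wild type, was positive for 16 members and negative for 15, with a median of 0.01, against -0.03 over all genes tested. Both necdin null arrays lay above both wild type arrays for 6 members, beside 12.8% of all genes, and below them for 4, beside 17.7%. The balance of higher and lower moved with the scaling: after median centring of the arrays 4 members were apart as higher and 5 as lower, beside 7.42% and 23.2% of all genes. Ddit4l, among the 6, and Tnfrsf10b, whose arrays overlapped, passed the filter through their necdin null arrays only. A 2 against 2 exact permutation test cannot give a two-sided p below 0.333. The limma adjusted p was 0.999 for each of the 31 members.

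**Figure D1:**
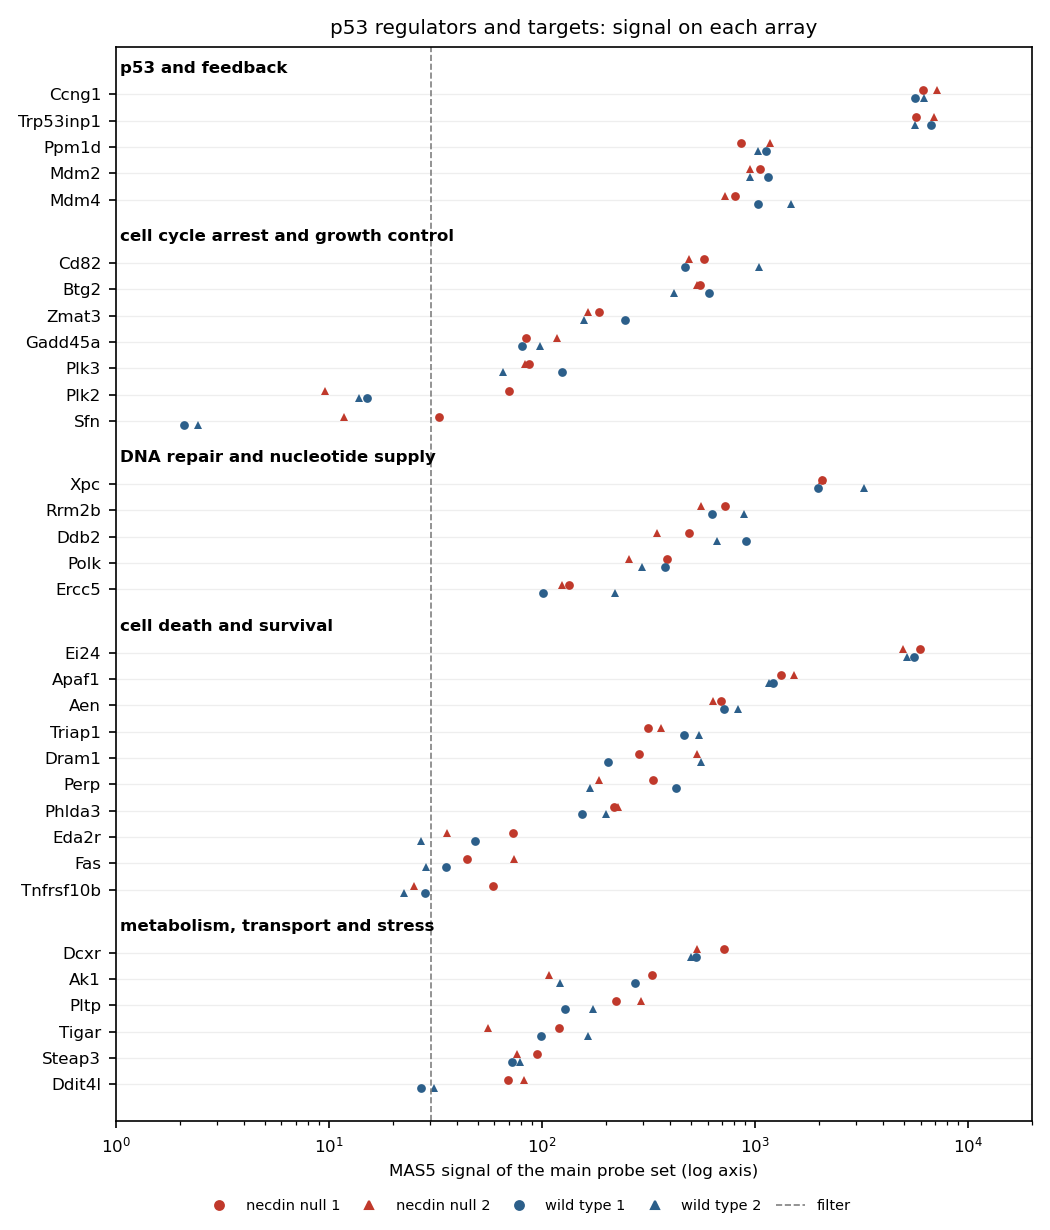
MAS5 signal (log axis) of the main probe set of 33 p53 regulators and targets, by function, with 1 point per array (red necdin null, blue wild type, circles replicate 1, triangles replicate 2). Ccng1, Trp53inp1 and Ei24 are the brightest members on all 4 arrays, and Sfn and Plk2 average below the dashed filter.

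The feedback genes were the brightest group, and 4 of its 5 measured members overlapped between the genotypes. Ccng1, whose protein cyclin G1 brings a phosphatase to MDM2, had 6177 and 7200 on the necdin null arrays, against 5677 and 6233 on the wild type arrays. Trp53inp1, a stress protein that promotes p53 phosphorylation and autophagy, had 5724 and 6917 on necdin null arrays, against 6693 and 5634 on wild type arrays. The log2 differences were 0.16 (95% interval -0.27 to 0.60) for Ccng1 and 0.03 (-0.42 to 0.49) for Trp53inp1. A 2-fold change in either direction lies outside both of these intervals, which hold for the main probe sets. The dimmer probe set of Trp53inp1, 1416927_at, had 45.1 and 121.9 against 9.26 and 89.0 (log2 difference 1.17), and averaging the probe sets moved the gene to 0.60.

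Mdm2, the ubiquitin ligase that keeps p53 low, had 1055 and 952 on necdin null arrays, against 1148 and 948 on wild type arrays, for a log2 difference of -0.06 (-0.56 to 0.44). Its other probe set above the filter, 1427718_a_at, went the other way, at 192 and 207 on necdin null arrays, against 149 and 72.2 on wild type arrays, for a log2 difference of 0.91. Ppm1d, the phosphatase WIP1 that removes damage-induced phosphates, had 857 and 1181 against 1127 and 1033 (-0.10, interval -0.63 to 0.43). Neither gene separated the genotypes by its main probe set, whereas the other probe set of Ppm1d, 1449092_at, was higher on both necdin null arrays (488 and 527 against 409.5 and 460, log2 difference 0.22).

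Mdm4, the MDM2 relative that binds p53 and blocks its transcriptional activity, had the clearest separation among the feedback genes. It had 804 and 723 on the necdin null arrays, against 1034 and 1473 on the wild type arrays. Both necdin null arrays lay below both wild type arrays, for a log2 difference of -0.69 (standard error 0.24; limma unadjusted p = 0.0201, adjusted p = 0.999). A dimmer probe set, 1453982_at, was also lower (75.5 and 60.3 against 90.2 and 89.6, log2 difference -0.39), while 1419558_at was higher, at 49.7 and 104.9 against 25.2 and 17.6 (1.61). Averaged over its 3 probe sets above the filter the difference was 0.18, so the direction for Mdm4 rests on the probe set chosen.

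By their main probe sets none of the 5 measured arrest genes was apart between the groups, and their median log2 difference was -0.09. Btg2, an antiproliferative cofactor of mRNA decay, had 555 and 534 on necdin null arrays, against 610 and 420 on wild type arrays (log2 difference 0.11). Its other probe set, 1416250_at, was lower on both necdin null arrays, at 208 and 196 against 260 and 279 (-0.41). Cd82, a tetraspanin known as a metastasis suppressor, had 577 and 490 against 468 and 1051 (-0.40, interval -1.24 to 0.45). The wild type arrays of Cd82 differed from each other more than the genotypes did, and without wild type replicate 2 its log2 difference was 0.18. Its dimmer probe set, 1449611_at, was lower on both necdin null arrays, at 119 and 46.3 against 152 and 238 (-1.31).

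Zmat3, an RNA-binding zinc finger protein, had 185 and 166 on necdin null arrays, against 244.6 and 158 on wild type arrays (-0.16). Gadd45a, which acts in G2 arrest and repair, had 84.5 and 118 against 81.0 and 98.0 (0.16). Plk3, a polo-like kinase of the stress response, had 86.8 and 83.7 against 124.6 and 65.9 (-0.09). Each of these 3 genes differed by less than its arrays did within a group. The 2 genes below the filter belong here as well. Sfn, which encodes the G2 checkpoint protein 14-3-3 sigma, had 32.8 and 11.8 on the necdin null arrays, against 2.10 and 2.43 on the wild type arrays. Plk2, another polo-like kinase, had 70.5 and 9.65 against 15.05 and 13.9. Neither was tested.

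All 5 repair and nucleotide supply genes had negative differences, as had 54.1% of all genes tested, with a median of -0.23 on the log2 scale, and 1 of them separated the groups. Without wild type replicate 2, 2 of the 5 were negative, and Xpc (0.066), Ercc5 (0.34) and Rrm2b (0.016) were positive; Polk was positive when necdin null replicate 2 (0.21) or else wild type replicate 1 (0.09) was left out. Ddb2, which encodes a subunit of the complex that recognises ultraviolet lesions for nucleotide excision repair, had 492 and 348 on the necdin null arrays, against 912 and 665 on the wild type arrays. Both necdin null arrays lay below both wild type arrays, for a log2 difference of -0.91 (standard error 0.29; limma unadjusted p = 0.0135, the smallest among the members, adjusted p = 0.999). The gene's other probe set, 1425706_a_at, had 254 and 188 on necdin null arrays, against 493 and 354 on wild type arrays, for a log2 difference of -0.92. Both Ddb2 probe sets thus had nearly the same difference, although they may share transcript sequence and are not independent measurements. Leaving out each array in turn gave log2 differences from -1.15 to -0.66. None of the 13 alternatives in which Ddb2 was measured turned its direction or brought it past the threshold. The alternative that did not measure it dropped probe sets with names ending in _s_at, _x_at or _a_at, which both Ddb2 probe sets have. There Mdm4 had a log2 difference of -0.39, and 0 members had a limma unadjusted p under 0.05.

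Xpc, the sensor that opens nucleotide excision repair across the genome, was the brightest repair member. It had 2064 and 2062 on necdin null arrays, against 1971 and 3245 on wild type arrays, for a log2 difference of -0.29 (-0.86 to 0.27). Wild type replicate 2 alone stood above the others. Rrm2b, the p53-inducible subunit of ribonucleotide reductase, had 728 and 559 against 631 and 887 (-0.23), and the difference was negative for 2 of its 4 probe sets above the filter. Ercc5, an endonuclease of nucleotide excision repair, had 134 and 125 against 102 and 222 (-0.21). Polk, a translesion polymerase, had 387 and 256 against 380 and 295 (-0.09). The arrays of these 3 genes overlapped.

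**Figure D2:**
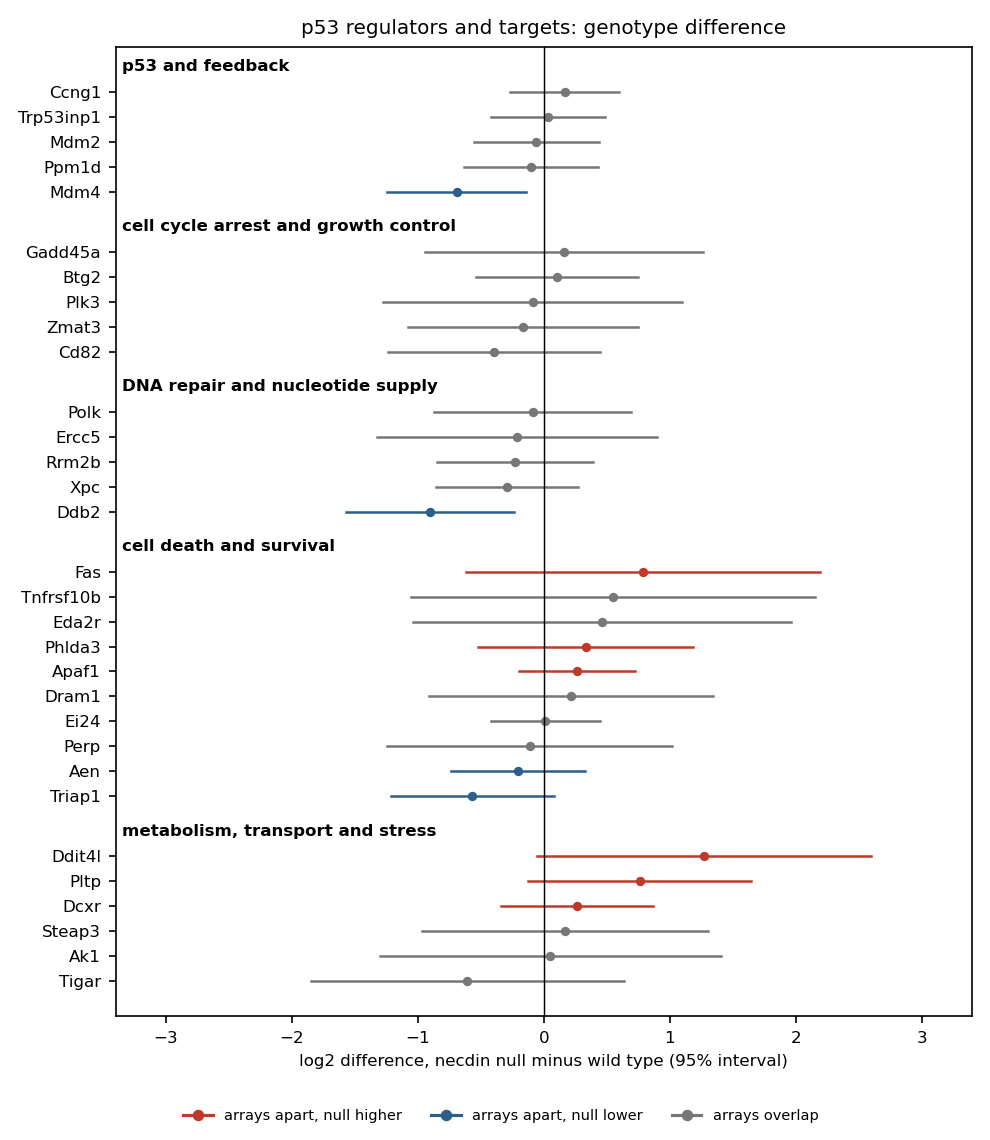
Log2 difference (necdin null minus wild type, points) with its 95% interval (lines) from limma for the 31 tested members, by function. Colour marks genes whose 2 necdin null arrays both lie above (red, 6 genes) or below (blue, 4 genes) both wild type arrays. Ddit4l, among the 6, passed the filter through its necdin null arrays only. The intervals of Mdm4 and Ddb2 lie below 0, without adjustment for the number of genes.

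The death and survival genes held members apart in both directions, 3 higher and 2 lower of 10. Of all genes, 12.8% were higher and 17.7% lower in this way (7.42% and 23.2% after median centring). Their median log2 difference was 0.24, which includes Tnfrsf10b, kept by the filter through its necdin null arrays only. Ei24, a p53-induced protein of the endoplasmic reticulum, had 5932 and 4959 on necdin null arrays, against 5570 and 5189 on wild type arrays, for a log2 difference of 0.01 (-0.42 to 0.44). Apaf1, the scaffold of the apoptosome that activates caspase-9, had 1325 and 1532 against 1213 and 1161 (0.26, interval -0.20 to 0.72). Its necdin null arrays were the higher ones, but its other probe set, 1450223_at, had a log2 difference of -0.50.

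Triap1, a small mitochondrial protein that restrains apoptosome formation, had 315 and 364 on the necdin null arrays, against 465 and 545 on the wild type arrays. All of its necdin null values lay below the wild type values, a log2 difference of -0.57 (standard error 0.29; limma unadjusted p = 0.0795, adjusted p = 0.999). Aen, an apoptosis-enhancing nuclease, had 698 and 638 against 716 and 829 (-0.21), and its other 2 probe sets above the filter were lower as well (-1.01 and -0.60). Phlda3, a repressor of AKT, had 218 and 227 against 154 and 201 (0.33, interval -0.52 to 1.18). For Phlda3 the necdin null arrays were above the wild type arrays by less than the wild type arrays differed from each other.

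The death receptors were dim. Fas had 44.6 and 74.4 on the necdin null arrays, against 35.4 and 28.6 on the wild type arrays, for a log2 difference of 0.79 (-0.62 to 2.20). Tnfrsf10b, the TRAIL receptor, had 59.1 and 25.1 against 28.3 and 22.6 (0.55, interval -1.05 to 2.15), and passed the filter through its necdin null arrays only. Eda2r, an X-linked TNF receptor family member, had 73.4 and 36.1 against 48.4 and 27.2 (0.46). At signals this close to the filter the intervals reach past a 2-fold change in both directions for Tnfrsf10b and Eda2r, so a change of that size was not detectable at this precision.

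Dram1 and Perp differed between arrays of the same group rather than between genotypes. Dram1, a lysosomal protein of p53-induced autophagy, had 288 and 538 on necdin null arrays, against 205 and 557 on wild type arrays, high on both replicate 2 arrays. Perp, a membrane protein of p53-dependent apoptosis, had 334 and 186 against 429 and 169, high on both replicate 1 arrays. Ak1, an adenylate kinase of the metabolic group, had 331 and 108 against 274 and 122, also high on both replicate 1 arrays. The summed neutrophil markers were higher on the replicate 2 arrays of both genotypes. Kit, a marker of the sort, was higher on the replicate 1 arrays (6049 and 3744 on necdin null arrays, against 6617 and 3976 on wild type arrays). Flt3, from the same progenitor list, was higher on the replicate 2 arrays (3254 and 4288 against 2845 and 4614). That list as a whole summed to 31306 and 31469 in necdin null cells, against 34933 and 29290 in wild type cells. In such bulk samples fewer cells of a type and less RNA per cell cannot be told apart. The part of cell composition in Dram1, Perp and Ak1, or in the genotype difference of any other member, was not tested.

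Among the metabolic and stress genes 3 of 6 were apart, all higher in necdin null cells, beside 12.8% of all genes (7.42% after median centring). The median log2 difference of the 6 was 0.22. The 3 were Pltp, Dcxr and Ddit4l, and Ddit4l entered this count and median only because its necdin null arrays were high. Ddit4l, an inhibitor of mTORC1 signalling, had 69.4 and 82.1 on the necdin null arrays, against 27.0 and 31.2 on the wild type arrays. Its log2 difference was 1.27 (standard error 0.58). Its wild type arrays averaged below the filter, so it was kept through the necdin null arrays only and its difference supports nothing by itself. A further probe set, 1439332_at, had 48.2 and 8.34 against 35.6 and 58.9, a log2 difference of -0.98. The value for Ddit4l averaged over probe sets was 0.14.

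Pltp, the phospholipid transfer protein of plasma lipoproteins, had 224 and 292 on necdin null arrays, against 129 and 174 on wild type arrays, for a log2 difference of 0.76 (-0.13 to 1.65; limma unadjusted p = 0.084, adjusted p = 0.999). It stayed positive when any array was left out, between 0.55 and 0.97. Dcxr, a reductase of the uronate cycle, had 713 and 536 against 528 and 502 (0.26, interval -0.34 to 0.87). For Dcxr the necdin null arrays differed from each other more than the nearer of them differed from wild type. Steap3, a ferrireductase that p53 induces, had 94.97 and 76.5 against 72.2 and 78.8 (0.17), with overlapping arrays. Both of its other probe sets lay below the filter and were higher on both necdin null arrays (log2 differences 1.40 and 2.38).

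Tigar, a fructose bisphosphatase that slows glycolysis, had 120.4 and 56.2 against 98.9 and 164 (-0.61), and its other 2 probe sets above the filter were positive. Probe sets of the same gene often pointed in different directions. Of the 13 members with several probe sets above the filter, 4 had all of them in the same direction: Ddb2, Aen, Cd82 and Trp53inp1. Of these, Ddb2 and Aen also had groups apart.

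**Figure D3:**
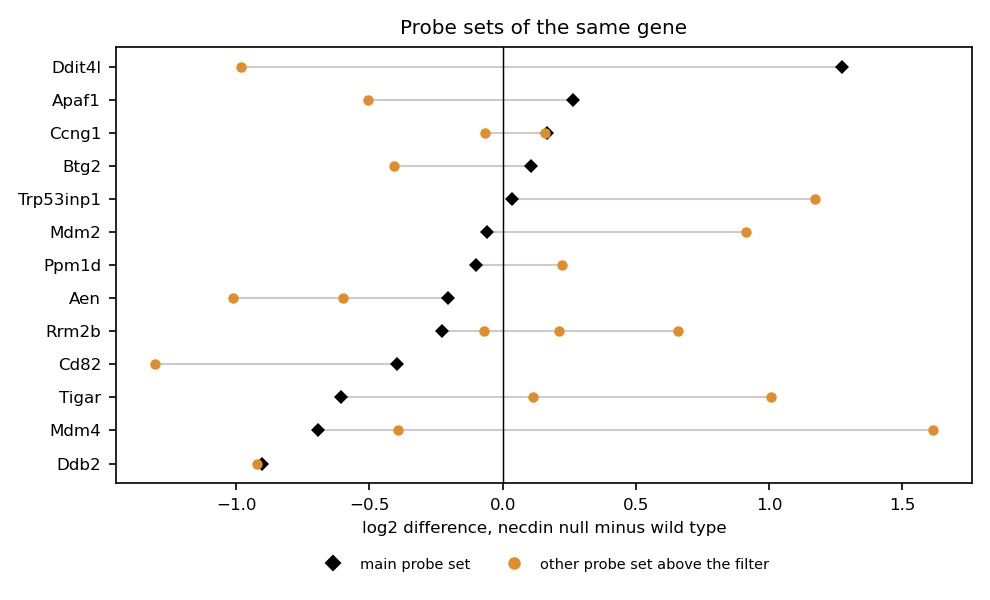
Log2 difference (necdin null minus wild type) of each probe set above the filter for the 13 members with more than 1, black diamonds for the main probe set and orange circles for the others. The Ddb2 points coincide near -0.9, whereas those of Ddit4l (1.27 and -0.98) and Mdm4 (-0.69, -0.39 and 1.61) fall on both sides of 0.

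None of the 8 measured genes with a p53 motif in their promoter window had a resolved difference, as each unadjusted interval included no change. Whether they moved together therefore cannot be decided here. Their log2 differences ran from -0.21 for Aen to 1.27 for Ddit4l. Ddit4l passed the filter through its necdin null arrays only. Its further probe set above the filter had -0.98, and its value averaged over probe sets was 0.14. The 5 others whose stretches are printed beside Ccng1 and Ddit4l (Mdm2, Ppm1d, Gadd45a, Ei24 and Polk) lay between -0.10 and 0.16. The Ccng1 promoter, with its pair of motifs, belongs to a gene with a difference of 0.16.

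Other genes of the p53 pathway were compared in the same way, from a list of 40 of which 34 had a named probe set and 29 passed the filter. Limma called 0 of the 29, and 2 (Crebbp and Ptprv) had an unadjusted p under 0.05, beside 3.02% of all genes. The groups were apart for 1 of them as higher and 8 as lower in necdin null cells, beside 12.8% and 17.7% of all genes (7.42% and 23.2% after median centring). The median log2 difference was -0.09. Ptprv, in both the 2 and the 8, passed the filter only because its wild type arrays were high, so it adds nothing to either count. None of the 7 damage signalling genes was apart, with differences from -0.24 for the kinase gene Atm to 0.13 for Chek1.

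Among the modifiers and partners of p53, 5 of 10 were apart and all 5 were lower. Of all genes, 17.7% were lower in this way (23.2% after median centring), and the count of 5 is without that centring. Crebbp, the acetyltransferase CBP that serves p53 as a coactivator, had 1313 and 1696 on the necdin null arrays, against 2307 and 2216 on the wild type arrays. It had a log2 difference of -0.60 (standard error 0.20; limma unadjusted p = 0.0175, adjusted p = 0.999), and all 3 of its probe sets above the filter were lower. Hipk2, a kinase that phosphorylates p53 for apoptosis, had 641 and 980 against 1266 and 1023 (-0.52), but 2 of its 6 probe sets above the filter shared that direction. The others were Trp53bp2 (-0.48) and Ppp1r13b (-0.26), which encode the ASPP proteins that steer p53 to apoptotic targets, and the acetyltransferase gene Kat5 (-0.24, with 1 of its 2 probe sets above the filter in this direction).

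Cdkn1a, the cell cycle inhibitor p21 and the classical p53 target, had 273 and 528 on necdin null arrays, against 255 and 354 on wild type arrays, for a log2 difference of 0.33 (-0.55 to 1.22). Bbc3, which encodes PUMA, had 202 and 187 against 206 and 314 (-0.38, interval -1.24 to 0.47). The Cdkn1a arrays overlapped, while both Bbc3 values of necdin null cells lay below wild type. Gtse1, a G2 protein that exports p53 from the nucleus, had 116 and 140 against 234 and 235, a log2 difference of -0.86 (-1.74 to 0.02). Ptprv, a phosphatase gene that p53 induces in mouse, had 11.95 and 25.5 against 58.5 and 62.5 (-1.58), and was kept by the filter through its wild type arrays only, so its difference and its p support nothing by themselves. Bax was not analysed here.

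**Figure D4:**
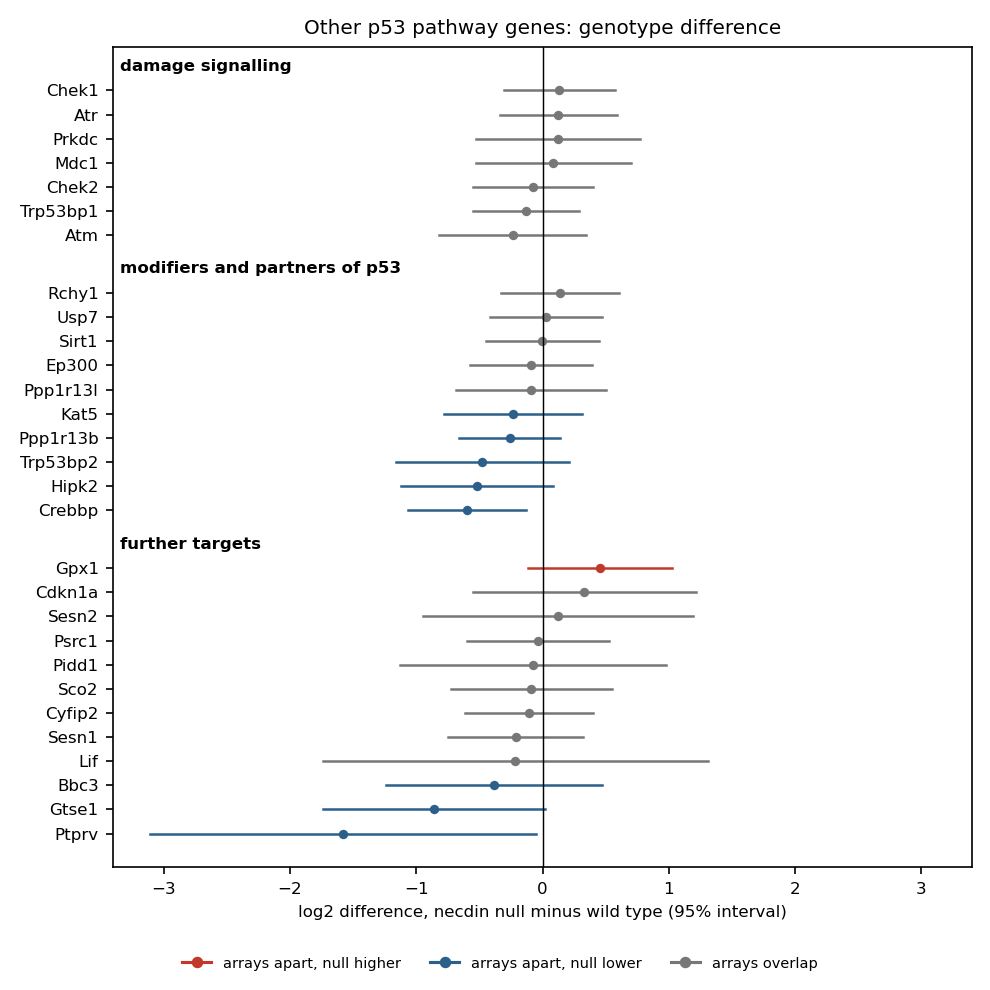
Log2 difference (necdin null minus wild type, points) with its 95% interval (lines) from limma for 29 other genes of the p53 pathway, by role. Blue marks the 8 genes with both necdin null arrays below both wild type arrays, 5 of them modifiers and partners of p53, and red the 1 gene above, Gpx1. Ptprv, among the 8, passed the filter through its wild type arrays only.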

How the data were processed

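The authors deposited 1 table of intensity values for 45101 probe sets on 4 arrays; per the submitters' processing notes these are MAS5 signals, of a version not stated there. The values are linear, with a mean of 500.0 per array after trimming 2% at each end. The platform annotation named the probe sets, and only the 34958 with 1 symbol were used; a gene's main probe set is that of highest mean log2 value. Values were analysed as log2(signal + 3.80), with the 10th percentile of all values as pseudocount, on which scale changes of dim genes come out too small. The filter kept the 12680 genes that reached the 40th percentile of probe sets. Limma 3.58.1 in R 4.3.3 (lmFit, eBayes with intensity trend, two-sided, Benjamini-Hochberg over all genes, threshold 0.05) compared the groups, and 95% intervals come from the same fit and are not adjusted. The code was tested on simulated data. Alternatives changed the pseudocount, filter, normalization, variance model, probe sets, replicate block or arrays. The members, function groups and other lists were chosen with earlier results of these data known. All 33 members with a probe set are given per array; of the other pathway genes, Cdkn1a, Bbc3 and the 4 of smallest p are, and genes named beside them are group members named after their values were seen. The number of arrays limits the precision.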

Additional observations from a re-analysis of the deposited data

How the results depend on the processing

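Called members stayed at 0 under all 14 alternatives, and 10 of the 31 kept their direction in each alternative that measured them. Called genes were 3 with the replicate block and 0 to 4 when leaving out 1 array, the lone array being assumed to vary like the others. The labels do not say that same-numbered arrays are paired, so the replicate block was kept as an alternative. Deviations of same-numbered arrays correlated at 0.11 across genes, which over only 2 pairs does not settle whether they are paired. With the block 5.32% of all genes had a limma unadjusted p under 0.05, beside 3.02% without it. Members apart were 17 to 24 when leaving out 1 array, where fewer arrays make this easier, and their median ran from -0.11 to 0.10. Averaging probe sets turned Apaf1 (-0.12), Btg2 (-0.15), Mdm2 (0.43), Mdm4 (0.18), Ppm1d (0.062), Rrm2b (0.14) and Tigar (0.17). Median centring turned Ak1 (-0.028), Ei24 (-0.068) and Trp53inp1 (-0.046), and quantile normalization Ei24 (-0.012), Mdm2 (0.0065) and Trp53inp1 (-0.017). Leaving out 1 array gave ranges across 0 for Ak1 (-0.74 to 0.84), Btg2 (-0.16 to 0.37), Cd82 (-0.98 to 0.18), Dram1 (-0.50 to 0.93), Eda2r (-0.013 to 0.94), Ei24 (-0.12 to 0.14), Ercc5 (-0.76 to 0.34), Gadd45a (-0.074 to 0.40), Mdm2 (-0.20 to 0.079), Perp (-0.77 to 0.55), Plk3 (-0.53 to 0.35), Polk (-0.39 to 0.21), Ppm1d (-0.33 to 0.13), Rrm2b (-0.47 to 0.016), Tnfrsf10b (-0.014 to 1.11), Trp53inp1 (-0.10 to 0.17), Xpc (-0.65 to 0.066) and Zmat3 (-0.47 to 0.15). The cause was not tested. Signals near the filter limit Fas, Tnfrsf10b, Eda2r and Ddit4l.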
